A study of Rattus norvegicus with 72 samples.

Results

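Sensory neurons of the dorsal root ganglion hold their identity through a small set of transcription factors that stay expressed in the adult. Of 10 listed genes for such factors, 8 were measured on the arrays: Isl1, Isl2, Drgx, Tlx3, Pou4f1, Runx1, Runx3 and Rbfox3. Pou4f2 and Pou4f3 were not among the named probe sets and were not analysed here. The genes were chosen by name, and each was represented by the brightest of its probe sets annotated to that symbol alone, over all arrays. The 8 genes had 13 probe sets, out of 31042 on the array, and 5 of the genes had a second probe set that served as a check. All 8 passed the filter on dim signals and were tested among 12276 genes.

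The ganglia came from Wistar rats of 8 to 12 weeks, taken from the lumbar levels L4 and L5, whose sensory axons run in the sciatic nerve. The nerve had been crushed at a proximal site (22 arrays) or a distal site (29 arrays), or the animals had sham surgery (21 arrays), and tissue was taken 1, 3, 8, 12, 16, 18, 24 or 28 h later. The labels give no genotype, no sex, no position for the crush sites along the nerve and no statement that arrays are separate animals, so every p-value measures the spread between arrays, which may be technical. Groups held 3 arrays with few exceptions: sham had 2 arrays at 12 h and 1 at 16 h, proximal had 2 at 12 h and at 16 h, and distal groups had between 2 and 6. Levels are log2 intensities, on which a difference of -1 is a halving, and the levels of different genes are not comparable because their probes differ. Hours were read in an early window (1, 3 and 8 h), a middle window (12 and 16 h) and a late window (18, 24 and 28 h). In ganglion tissue, fewer cells of a type and less RNA per cell cannot be told apart.

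In development Isl1 and Pou4f1 act together to end the neurogenic programme and to start the sensory one, and both remain on in most adult sensory neurons. Isl2 is the close relative of Isl1. Tlx3 and Drgx are homeodomain factors of the pain and itch circuits, Runx1 directs nociceptors towards the non-peptidergic fate, and Runx3 directs proprioceptors. Rbfox3 is no transcription factor but an RNA-binding splicing regulator, whose protein is the NeuN antigen used everywhere as a nuclear marker of neurons. After an axon is cut these neurons switch towards a growth programme, for which Atf3 is the usual reporter.

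By their neuronal markers the arrays fitted their labels as sensory ganglia. Of 18 sensory neuron markers measured, 18 had a mean above the median probe set, against 0 of 11 spinal cord markers. Of 12 skeletal muscle markers 7 were above it. Their mean level per array ran from 6.04 to 10.88 in early distal, 6.18 to 10.82 in late distal and 6.1 to 9.7 in late sham arrays. In late proximal arrays it ran from 6.20 to 7.07. The source of this spread was not tested. The injury reporters were higher after the proximal lesion than after sham in the late window, with a log2 difference of 3.62 for Atf3 (SE 0.30, adjusted p = 1.69e-14). Il6 (3.46), Sox11 (2.35), Gal (1.14) and Gap43 (0.21) were called higher too, although the dimmer probe set of Gap43 gave 0.02 and was not called. Arrays fell into 4 technical sets, A to D, found by clustering on probe sets too dim to be tested. Set A held 27 distal arrays and no others, and only 2 distal arrays lay among the sham and proximal arrays of sets B and C. Sham and proximal arrays of one hour shared their sets nearly throughout, so proximal against sham can be read within a set, while distal against either cannot. The exception was 16 h, where the 1 sham array lay in set B and the 2 proximal arrays in sets B and C. In sham and proximal arrays the sets followed the hours (set D at 1, 24 and 28 h, set C at 3 and 8 h, sets B and C at 12, 16 and 18 h). The share of a gene's variance that lay between sets ran from 0.15 for Pou4f1 and 0.23 for Drgx to 0.58 for Tlx3 and 0.61 for Runx1.

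The promoter windows of both homeodomain genes called below, Isl2 and Drgx, and of Isl1 as the relative of Isl2 that was not called are printed here, from RefSeq on build GRCr8. Each runs from 250 bases before the start site to 50 after it and is written 5′ to 3′ on the gene's strand. Of the 8 measured genes 7 had a window in the RefSeq table, and no window for Rbfox3 was used here. Capitals mark matches, on either strand, to 9 motifs searched. They were TAATTA (a homeodomain core), TGANTCA (the site of AP-1 factors), TGACGTCA (the cyclic AMP response element), TGTGGT (the site of Runx factors), GGGCGG (the box bound by SP1), TATAAA (the TATA box), an E-box CAGCTG, another E-box CACGTG, and CCAAT (the CCAAT box). None of the matches shown overlap each other.
Isl2, chr8:64819629-64819928, plus strand: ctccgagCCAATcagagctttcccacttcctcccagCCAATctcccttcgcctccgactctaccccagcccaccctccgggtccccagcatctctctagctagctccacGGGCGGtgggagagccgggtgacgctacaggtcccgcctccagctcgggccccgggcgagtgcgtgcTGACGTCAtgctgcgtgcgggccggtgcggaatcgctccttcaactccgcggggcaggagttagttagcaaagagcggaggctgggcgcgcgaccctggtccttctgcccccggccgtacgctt
Drgx, chr16:7860907-7861206, plus strand: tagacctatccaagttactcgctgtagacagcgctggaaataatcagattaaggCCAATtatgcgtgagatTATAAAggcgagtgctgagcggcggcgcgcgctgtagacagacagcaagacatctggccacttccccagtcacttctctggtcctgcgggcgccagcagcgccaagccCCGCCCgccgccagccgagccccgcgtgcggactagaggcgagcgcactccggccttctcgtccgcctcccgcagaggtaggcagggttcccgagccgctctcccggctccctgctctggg
Isl1, chr2:49823393-49823692, minus strand: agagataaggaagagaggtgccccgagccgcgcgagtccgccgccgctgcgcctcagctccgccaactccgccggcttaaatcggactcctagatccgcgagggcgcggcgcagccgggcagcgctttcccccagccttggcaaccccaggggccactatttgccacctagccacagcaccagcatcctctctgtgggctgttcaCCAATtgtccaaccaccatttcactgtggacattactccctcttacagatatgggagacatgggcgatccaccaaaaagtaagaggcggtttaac

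Isl2 carried the cyclic AMP response element, starting at base -74 from the start site, a motif found in 1.83% of 33469 windows of the same length. A window of Runx3, a member not called late, carried the same element at base -247 and is not printed. The Isl2 window also had 1 GGGCGG box (33.06% of windows) and 2 CCAAT boxes (37.49%). Drgx had 1 match to TATAAA (14.22% of windows), 1 to GGGCGG and 1 to CCAAT, and Isl1 had 1 CCAAT box and no other match. The AP-1 site occurred in 7.33% of windows and the homeodomain core in 5.36%, and neither lay in the 3 printed windows. A match describes letters in a window and was not tied to any measurement here. The windows follow annotated start sites that were not checked against transcripts, so the 3 windows may cover unlike regions.

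**Figure D1:**
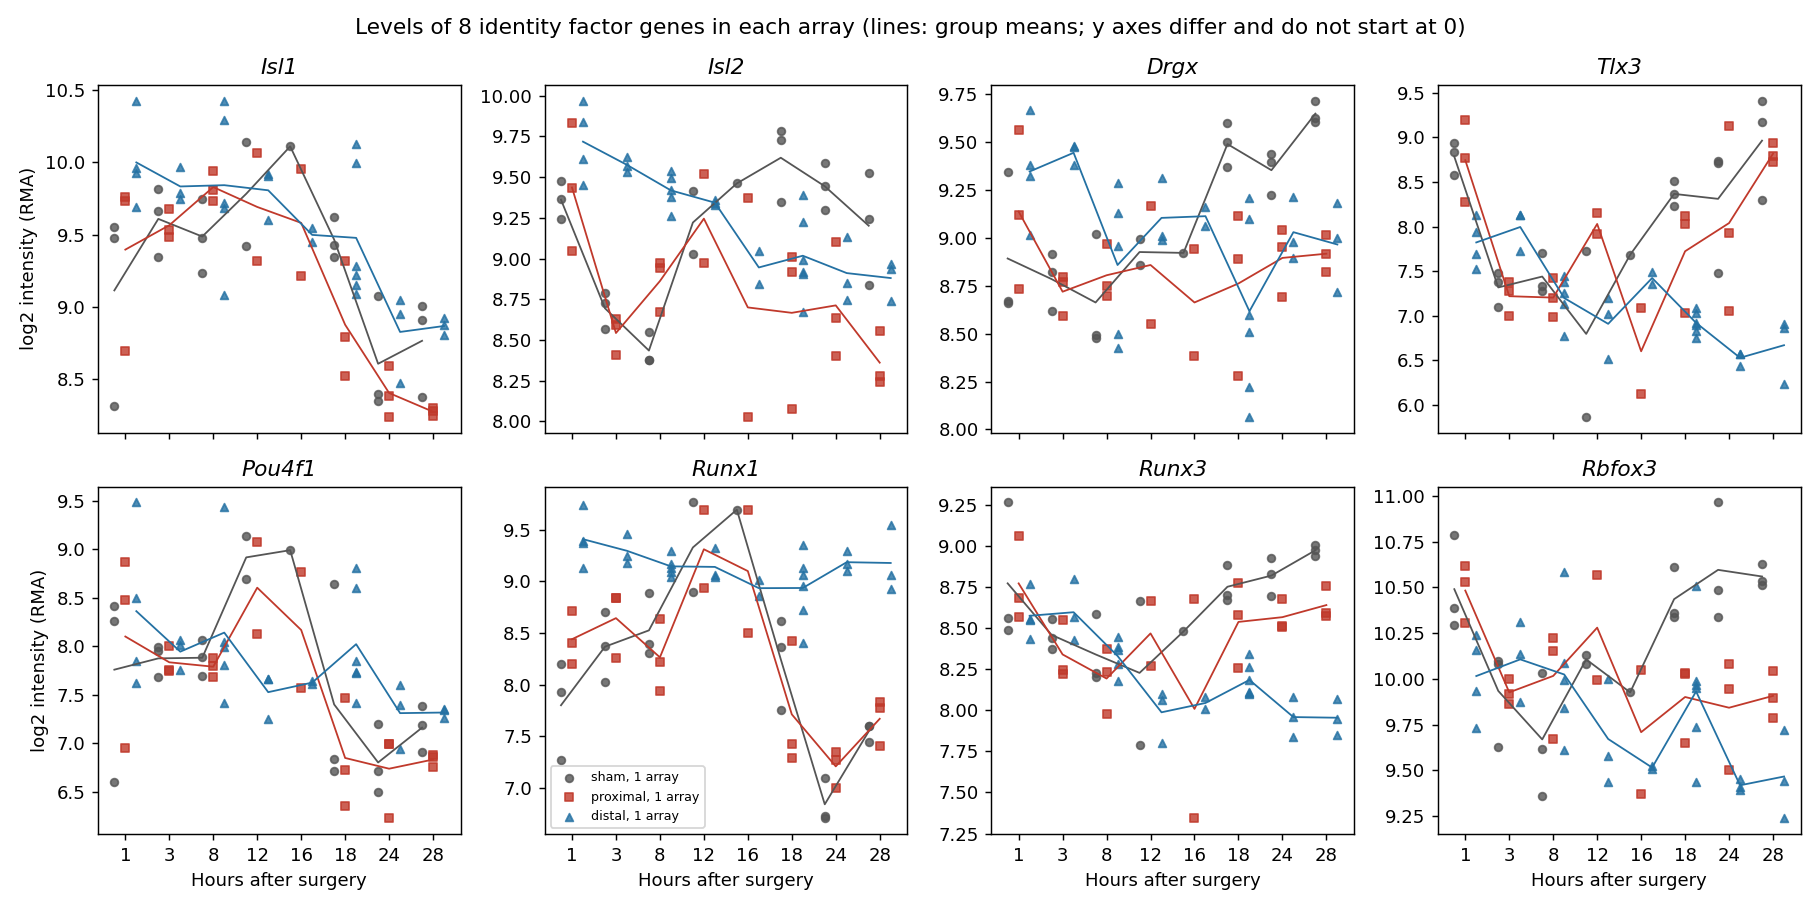
Log2 intensity of 8 genes (y axis) against hours after surgery (x axis, 8 times, not to scale), 1 point per array (sham circles, proximal squares, distal triangles) with lines through group means. Isl2, Drgx and Rbfox3 lie lower in every proximal array than in any sham array of the same hour at 18, 24 and 28 h. Isl1 and Runx3, not called in this window, do so at 2 of these 3 hours, and the share of all genes was not computed. The sham means of Runx1, Pou4f1, Tlx3, Isl1 and Isl2 span more than 1 over the hours.

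In the late window Isl2, Drgx and Rbfox3 were lower after the proximal lesion than after sham, and no member was called higher. All 8 genes had a negative difference, with a median of -0.39 against -0.02 over all genes tested. Of the 8 genes 3 were called, at an adjusted p under 0.05 from limma, and all 3 were lower, against 4.36% of all genes called lower, 5.35% called higher and 9.71% called in either direction.

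The LIM-homeodomain gene Isl2 showed the greatest difference of the 8. At 18 h its log2 intensity was 9.73, 9.78 and 9.35 in the sham arrays and 8.92, 9.01 and 8.08 in the proximal arrays. At 24 h it was 9.45, 9.30 and 9.59 in sham and 8.40, 8.63 and 9.10 in proximal arrays. At 28 h it was 8.84, 9.52 and 9.24 in sham and 8.56, 8.28 and 8.24 in proximal arrays. The groups did not overlap at any of these 3 hours, and 6 of the 9 proximal arrays lay below every late sham array. The share of all genes with these 2 patterns was not computed. Runx3, which was not called in this window, also had 6 of 9 proximal arrays below every late sham array. The log2 difference over the window was -0.84 (SE 0.12, 95% confidence interval -1.09 to -0.59, adjusted p = 1.07e-06), a 1.79-fold lower level. Within technical sets at 18 h the difference was -0.79 in set B (2 arrays a group) and -1.27 in set C (1 array a group).

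Drgx, a paired homeodomain gene of nociceptive neurons, separated the groups fully. At 18 h it read 9.50, 9.60 and 9.37 in sham arrays and 9.12, 8.89 and 8.28 in proximal arrays. At 24 h the sham arrays had 9.44, 9.22 and 9.40 and the proximal arrays 8.69, 8.95 and 9.04. At 28 h the sham arrays had 9.63, 9.60 and 9.72 and the proximal arrays 8.82, 8.91 and 9.01. All 9 late proximal arrays lay below all 9 late sham arrays, a pattern that 0.538% of genes tested share. The log2 difference was -0.64 (SE 0.13, interval -0.90 to -0.37, adjusted p = 0.000395), a 1.56-fold lower level. At 18 h it was -0.55 within set B and -1.09 within set C.

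Rbfox3, the gene for NeuN, had the same separation. At 18 h it read 10.34, 10.36 and 10.61 in sham arrays and 10.02, 10.03 and 9.65 in proximal arrays. At 24 h the sham arrays had 10.34, 10.49 and 10.97 and the proximal arrays 9.50, 9.95 and 10.08. At 28 h the sham arrays had 10.63, 10.51 and 10.54 and the proximal arrays 10.04, 9.78 and 9.89. Again 9 of 9 proximal arrays lay below every sham array. The log2 difference was -0.65 (SE 0.12, interval -0.89 to -0.40, adjusted p = 0.000118), a 1.57-fold lower level. At 18 h it was -0.32 within set B and -0.97 within set C.

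The other 5 genes were not called in this window. Isl1 had a log2 difference of -0.43 (interval -0.77 to -0.09, adjusted p = 0.107), with 8.35, 9.01 and 9.62 as lowest, median and highest sham array and 8.24, 8.38 and 9.31 in proximal arrays. Its groups overlapped, but 8 of 9 proximal arrays lay below the sham median. Runx3, the proprioceptor factor, had -0.27 (interval -0.49 to -0.04, adjusted p = 0.135), with 8.67, 8.88 and 9.01 in sham and 8.26, 8.58 and 8.78 in proximal arrays, all 9 below the sham median. Both Isl1 and Runx3 were called with array weights and in a fit of only the arrays of this comparison (adjusted p from 0.000357 to 0.0486). Runx3 was also called with another quantile normalization (adjusted p = 0.0302, 1809 genes called) and with the technical set as a block (adjusted p = 0.0262, 2336 genes called). Isl1 was called when the proximal 18 h array c was left out (-0.50, adjusted p = 0.049, 1371 genes called). Tlx3 differed by -0.35 (interval -0.75 to 0.04) and Pou4f1 by -0.32 (interval -0.83 to 0.20). Runx1 differed by -0.01 (interval -0.32 to 0.29), and this interval excludes a fall of the size seen in Isl2.

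**Figure D2:**
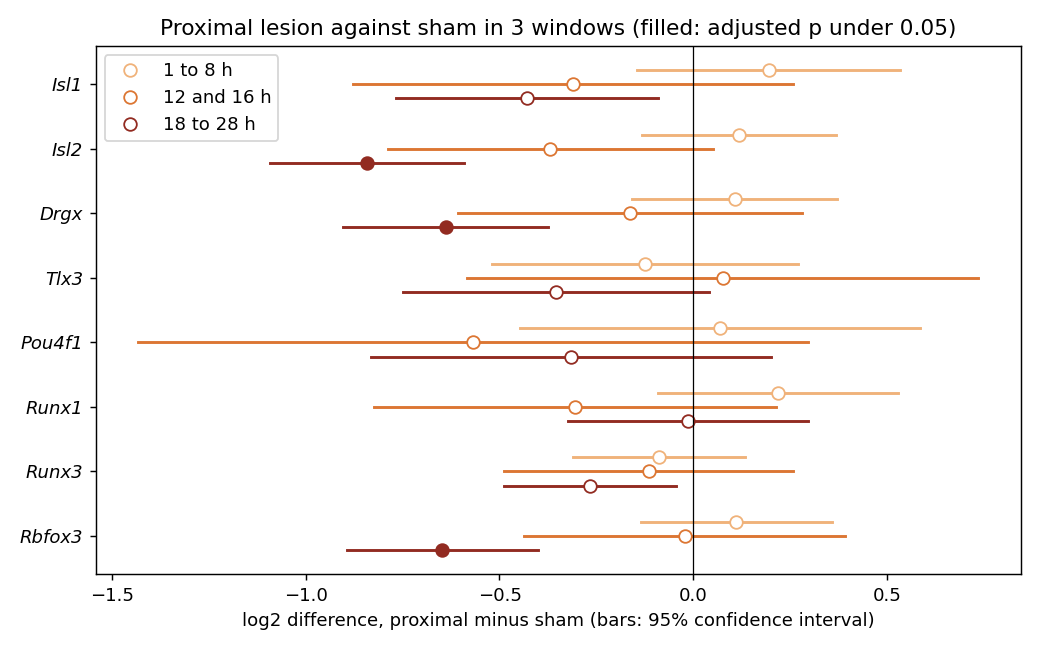
Log2 difference of proximal minus sham (x axis) for 8 genes in 3 windows, with bars for the 95% confidence interval and filled points for an adjusted p under 0.05. Only the late points of Isl2 (-0.84), Rbfox3 (-0.65) and Drgx (-0.64) are filled, and the early points of these genes lie between 0.11 and 0.12.

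In the early window 0 of the 8 members were called by limma (0 at an unadjusted p under 0.05), with 0.13% of all genes called. Isl2, Drgx and Rbfox3 stood at 0.12, 0.11 and 0.11 above sham there. In the middle window 0 of 8 were called (again 0 unadjusted), with 0.114% of genes called, and Isl2 stood at -0.37 (interval -0.79 to 0.05). The late difference minus the early one was -0.96 for Isl2 (SE 0.18, adjusted p = 0.000182), -0.76 for Rbfox3 (SE 0.17, adjusted p = 0.00273) and -0.75 for Drgx (SE 0.19, adjusted p = 0.00622). Of all genes 8.67% were called in that test, and the other 5 members were not called, with Isl1 nearest at -0.62 (adjusted p = 0.0939). Drgx went from 8.78 in early to 9.50 in late sham arrays and from 8.89 to 8.86 in proximal arrays, while Isl2 went from 8.83 to 9.42 in sham and from 8.95 to 8.58 in proximal arrays (means of 9 arrays). These windows mix technical sets. Within set D, Isl2 in sham differed by -0.04 between 1 h and the later hours 24 and 28 h (interval -0.41 to 0.33). Over the same hours Drgx in sham differed by 0.61 (interval 0.23 to 0.99), which was not called.

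Hour by hour, Isl2 stood at 0.43 above sham at 8 h, 0.02 at 12 h, -0.76 at 16 h, -0.95 at 18 h, -0.73 at 24 h and -0.84 at 28 h. At 16 h the 1 sham array (9.46) lay in set B with 1 proximal array (9.37), while the other proximal array (8.03) lay in set C. Isl2 was the only member called at a single hour, at 18 h (adjusted p = 0.0068, with 1.51% of genes called) and at 28 h (adjusted p = 0.0107, with 4.47% called). At 24 h 0 members were called (3 at an unadjusted p under 0.05), with 1.21% of genes called and an adjusted p of 0.0891 for Isl2. The 18 h call was lost when proximal array c (-0.66, adjusted p = 0.0641) or sham array a (-0.90, adjusted p = 0.0505) was left out, in a fit of only the arrays of that hour (adjusted p = 0.999) and with the dimmer probe set (-0.85, adjusted p = 0.126). The 28 h call was lost without proximal array b (-0.80, adjusted p = 0.0707), proximal array c (-0.78, adjusted p = 0.0852) or sham array b (-0.68, adjusted p = 0.137), and with the dimmer probe set (-0.84, adjusted p = 0.0781). Drgx was at -0.26 at 16 h, -0.73 at 18 h, -0.46 at 24 h and -0.73 at 28 h, where its adjusted p was 0.0507. Rbfox3 was at -0.22, -0.54, -0.75 and -0.65 at the same hours. At 16 h the proximal array of set B had 8.94 in Drgx and 10.05 in Rbfox3, against 8.92 and 9.93 in the sham array of that set.

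Over the late window both probe sets of Isl2 were called lower. The one dimmer over all arrays had 9.51 ± 0.30 (SD, n = 9) in late sham arrays and 8.71 ± 0.30 (SD, n = 9) in late proximal arrays, a difference of -0.81 (adjusted p = 0.000254). Rbfox3 was measured less well. Its dimmer probe set varied widely, with 8.80 ± 1.10 (SD, n = 9) in sham and 8.35 ± 0.71 (SD, n = 9) in proximal arrays, and its difference of -0.45 was not called (adjusted p = 0.645). The dimmer probe set of Isl1 had a mean below the filter level, and those of Isl1 and Runx3 differed from sham by 0.03 each, with neither called. Drgx, Tlx3 and Pou4f1 had 1 named probe set.

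**Figure D3:**
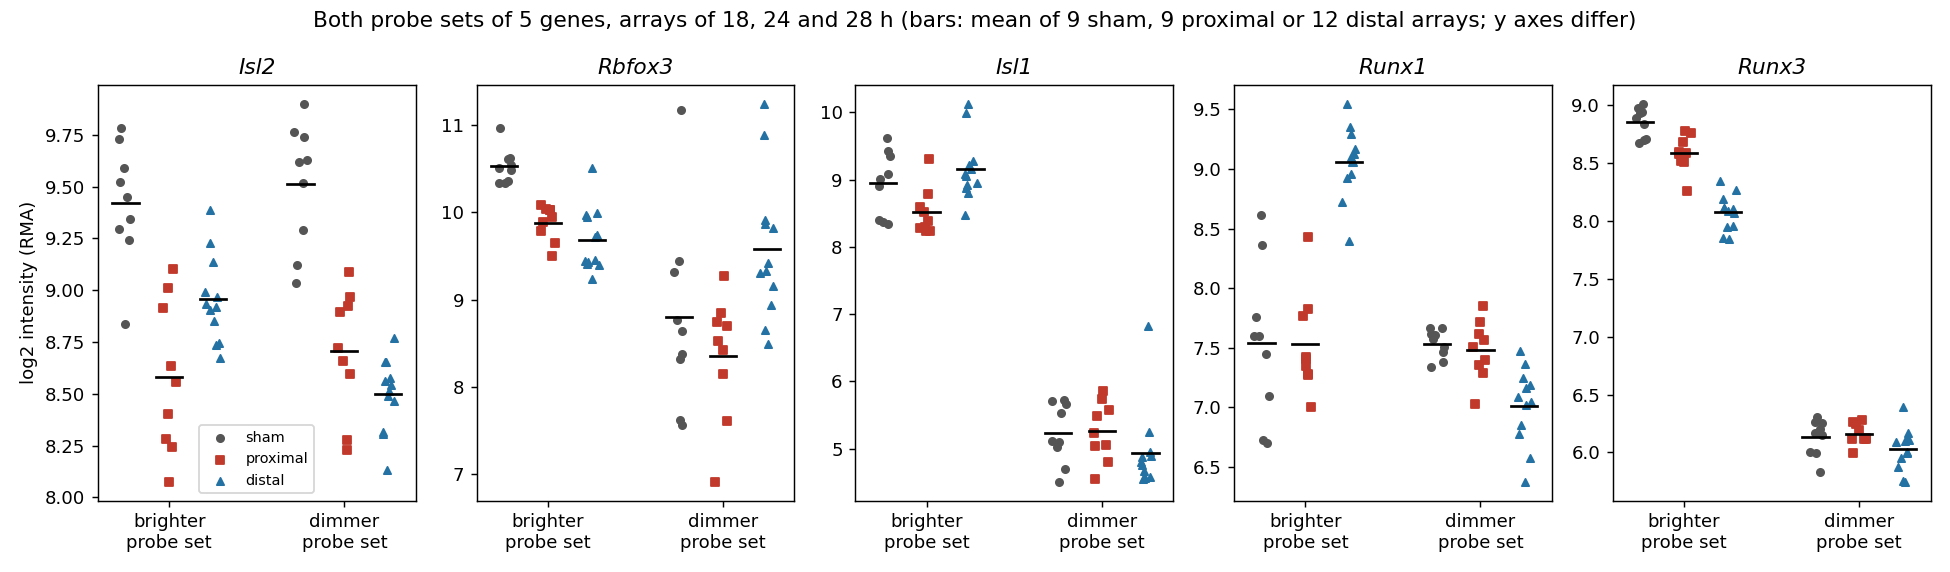
Log2 intensity (y axis) of the brighter and the dimmer probe set of 5 genes in late arrays of sham, proximal and distal groups (1 point per array, bars for means of 9, 9 and 12 arrays). Both probe sets of Isl2 are lower after the proximal lesion than after sham, while those of Runx1 and Rbfox3 place the distal arrays on opposite sides of sham.

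The genes whose hourly course was most like that of Isl2, by Pearson correlation of the 8 hourly proximal minus sham differences among genes called in the late window, were Dact3, an inhibitor of Wnt signalling (r = 0.9896), the kinase gene MAST1 (0.9848), the copine gene Cpne6 (0.9827), Cnih2, an AMPA receptor auxiliary subunit (0.9808), and the amino acid transporter gene Slc43a2 (0.9806). Their late differences ran from -0.43 to -0.24. For Rbfox3 they were the diacylglycerol kinase gene Dgkz (0.9906), the NMDA receptor subunit gene Grin1 (0.9898), the potassium channel gene Kcnh6 (0.9826), Rgs3, a regulator of G protein signalling (0.9804), and the coronin gene Coro2b (0.9790). Among the members, the courses of Isl2 and Isl1 correlated at 0.94, of Isl2 and Drgx at 0.91, of Isl2 and Rbfox3 at 0.91 and of Rbfox3 and Runx1 at -0.03. These correlations rest on 8 hours that share arrays between genes and were picked as the highest of many, so they describe the courses and carry no test.

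Of 49 tested genes in a list of 67 other sensory lineage and neuronal transcription factors, 9 were called lower after the proximal lesion in the late window by limma, 0 were called higher (2 at an unadjusted p under 0.05) and 40 were not called, with a median of -0.13 (over all genes 4.36% were called lower, with a median of -0.02). The largest differences were those of Hoxd1, a Hox gene of nociceptors (-0.75, SE 0.14, adjusted p = 8.88e-05), the sine oculis homeobox gene Six4 (-0.68, SE 0.15, adjusted p = 0.0012) and the TALE homeodomain gene Pknox2 (-0.54, SE 0.09, adjusted p = 2.32e-05). Prdm12, required for nociceptors to form and mutated in congenital insensitivity to pain, had -0.50 (SE 0.12, adjusted p = 0.00241). The related zinc finger genes Bcl11b (-0.44) and Bcl11a (-0.40) were lower. The dimmer probe set of Bcl11a gave -0.15 and was not called (adjusted p = 0.686), and Bcl11b lost its call without the 18 h arrays and in a fit of only the arrays compared. Tshz3 (-0.42), Meis1 (-0.39) and the mechanoreceptor factor Mafa (-0.33) were called with adjusted p between 0.0264 and 0.0418, and each lost its call when some single arrays were left out (Tshz3 with 5 of 18 arrays, Mafa with 9 and Meis1 with 13). All 3 also lost it without the 18 h arrays, and Tshz3 and Meis1 when fitted with the late sham and proximal arrays only. Hoxd1, Six4, Pknox2 and Prdm12 kept their calls in all 8 alternatives run and without each of the 18 arrays in turn. In the late minus early test 5 of the 49 were called, all lower: Hoxd1 (-0.86), Prdm12 (-0.62), Pknox2 (-0.59), Bcl11a (-0.50) and Mafg (-0.46). Over all 12276 genes, 692 were called lower and 372 higher in that test (8.67% called).

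**Figure D4:**
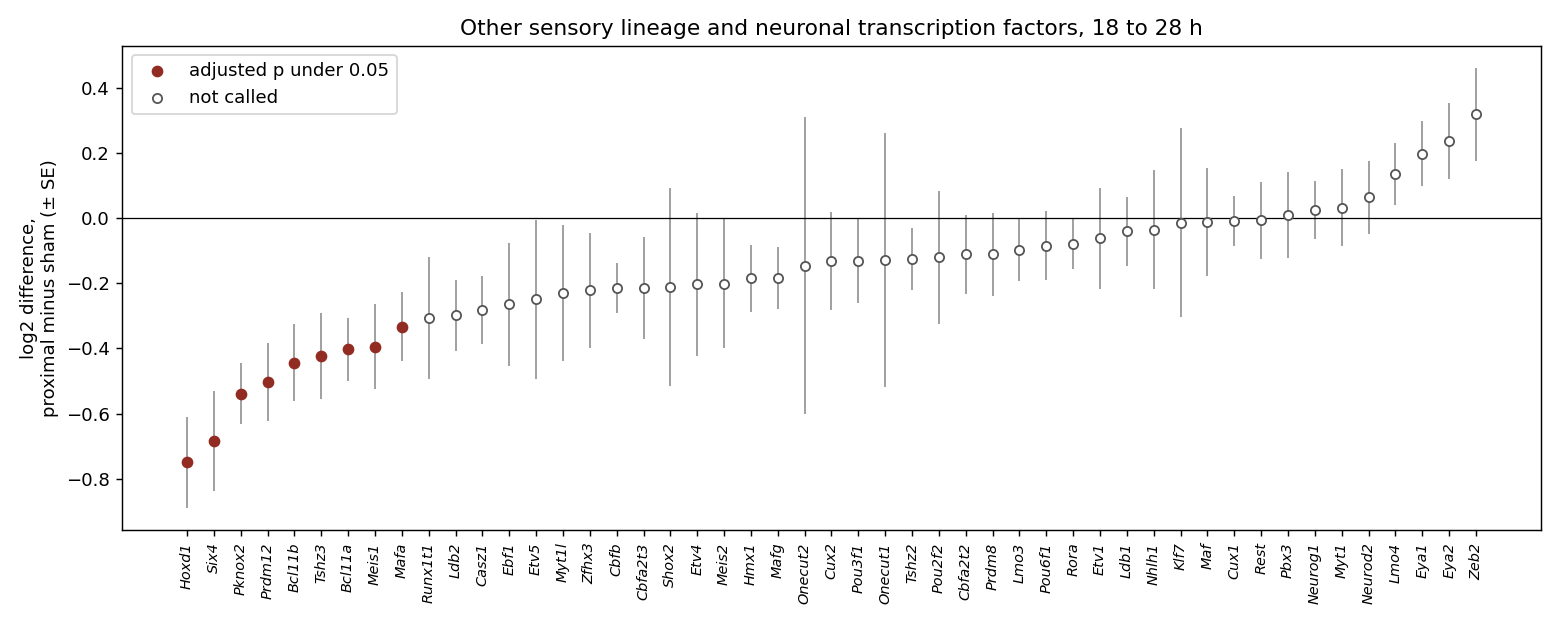
Log2 difference of proximal minus sham at 18 to 28 h (y axis, bars for SE) for 49 sensory lineage and neuronal transcription factor genes (x axis, in order of the difference). The 9 filled points had an adjusted p under 0.05 and all lie below 0, from Hoxd1 (-0.75) to Mafa (-0.33).

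Of 23 tested nociceptor genes known to depend on Isl1, Tlx3 or Runx1, 6 were lower, 1 was higher and 16 were not called, with a median of -0.05. Over all genes 4.36% were called lower and 5.35% higher, with a median of -0.02. Isl1, Tlx3 and Runx1 were themselves not called in this window, and a link between them and these genes was not tested. The log2 difference was -0.71 for the kainate receptor gene Grik1 (adjusted p = 4.21e-06), -0.43 for the nicotinic receptor subunit gene Chrna3 (adjusted p = 0.0126) and -0.40 for the heat-gated channel gene Trpv1 (adjusted p = 8.22e-05). The call of Chrna3 was lost without the 18 h arrays. Gfra2, the neurturin co-receptor, had -0.42 (adjusted p = 1.62e-05), although its dimmer probe set gave -0.22 and was not called. The sodium channel genes Scn11a (-0.27) and Scn10a (-0.25) were lower as well, with calls lost when 3 (Scn10a) or 11 (Scn11a) of the 18 arrays were left out singly, and both lost with the late sham and proximal arrays fitted by themselves. Gfra1, the GDNF co-receptor, was the 1 called higher (0.51, adjusted p = 8.24e-06). Calca (-0.01), Ret (0.01) and Tac1 (-0.05), named after their values were seen, were among those not called.

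Of 21 tested mechanoreceptor and proprioceptor genes, a list that includes Runx3, 1 was lower, the potassium channel subunit gene Kcns1 (-0.53, adjusted p = 0.0017), and 1 was higher, Spp1, which encodes osteopontin (0.37, adjusted p = 0.00385). The count of lower genes depended on the setting, with 4 under another quantile normalization and 6 each with array weights and with the technical set as a block. The next smallest p-values were those of Cntnap2 (-0.27, adjusted p = 0.0876) and Chodl (-0.27, adjusted p = 0.116). Of 15 tested RNA-binding protein genes, from a list that includes the Rbfox3 relatives Rbfox1 and Rbfox2, 0 were called by limma (2 at an unadjusted p under 0.05), with a median of 0.02. The 4 with the smallest p were Ptbp1 (0.20, adjusted p = 0.0745), Celf5 (-0.27, adjusted p = 0.142), Celf1 (0.22, adjusted p = 0.293) and Celf4 (-0.19, adjusted p = 0.48). The relatives Rbfox1 and Rbfox2, named after their values were seen, stood at 0.11 and -0.10.

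Of 18 tested sensory neuron markers 3 were called lower (Prdm12, Syn1 and Scn10a), 0 higher and 15 were not called, with a median of -0.03, and their mean level ran from 12.09 to 12.41 in late sham arrays and from 12.07 to 12.35 in late proximal arrays. Of 19 macrophage markers 11 were called higher, 0 lower and 8 were not called, and the median difference was 0.44. Their mean level ran from 7.41 to 8.21 in sham and from 7.89 to 8.92 in proximal arrays, with none of the 19 below the filter level. By hour, 12 were called higher at 28 h (median 0.92), and limma called 0 at 18 h (2 at an unadjusted p under 0.05, median 0.18) and 0 at 24 h (5 unadjusted, median 0.27). Of 9 fibroblast markers 2 were called higher (Fn1 and Postn), of 9 satellite glia markers 1 (Gfap) and of 2 tested neutrophil markers 1 (S100a9), and 1 of 7 sympathetic neuron markers was called lower (Chrna3). The part of these cells in the lower levels of Isl2, Drgx and Rbfox3 was not tested. Schwann cell and endothelial markers (9 each), skeletal muscle markers (11), lymphocyte markers (8), erythrocyte markers (3) and spinal cord markers (3) had 0 called by limma, and 1 of these, an erythrocyte marker, had an unadjusted p under 0.05.

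After the distal lesion the members can be compared with sham only across technical sets. Distal against sham in the late window called 6 of 8 members, with 61.8% of all genes called. The distal arrays were lower in Tlx3 (-1.84), Rbfox3 (-0.93), Runx3 (-0.82), Drgx (-0.63) and Isl2 (-0.49) and higher in Runx1 (1.56). The dimmer probe set of Runx1 had the opposite sign (-0.51, adjusted p = 0.0061), as did that of Rbfox3 (0.62, adjusted p = 0.172). Distal against proximal called 7 of 8, with 53.4% of genes called. The 7 were Runx1 (1.57), Tlx3 (-1.49), Pou4f1 (0.74), Runx3 (-0.55), Isl1 (0.54), Isl2 (0.36) and Rbfox3 (-0.28). The dimmer probe sets of Runx1 (-0.45, adjusted p = 0.0167) and Rbfox3 (1.07, adjusted p = 0.0216) were called with the opposite sign. Those of Isl1 (-0.37) and Isl2 (-0.23) also had the opposite sign and were not called, and that of Runx3 (-0.15) was not called. Lesion and technical set cannot be told apart in these values. The 1 distal array of 18 h that lay in set C differed from the 1 sham array of that set and hour by -1.61 in Tlx3, -1.30 in Drgx, -1.18 in Rbfox3, -0.67 in Isl2 and -0.21 in Runx1, with no replicate.

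Change over time compares distal arrays with each other, 22 of 24 of them in set A, and does not separate the lesion from the hours since surgery. From the early to the late window 7 of 8 members fell in the distal arrays, against 9.87% of all genes called lower. Tlx3 went from 7.60 ± 0.43 (SD, n = 12) to 6.76 ± 0.25 (SD, n = 12), and the difference between windows, with each hour weighted equally, was -0.97 (SE 0.18, adjusted p = 2.42e-05). The log2 difference was -0.84 for Isl1 (SE 0.15), -0.63 for Isl2 (SE 0.11), -0.60 for Pou4f1, -0.47 for Runx3, -0.44 for Rbfox3 and -0.35 for Drgx. Runx1 differed by -0.18 (interval -0.46 to 0.09, not called). The call of Pou4f1 was borderline (adjusted p = 0.0487) and was lost within set A (-0.46, adjusted p = 0.136), and that of Drgx was lost without the 18 h arrays (-0.22, adjusted p = 0.275). In Isl1 and Runx3 the dimmer probe set was not called (-0.02 and -0.16). In sham arrays all 8 members were called between the same windows, with 40.3% of genes called: Drgx, Tlx3, Isl2, Rbfox3 and Runx3 were higher late, by 0.32 to 0.72, and Pou4f1, Runx1 and Isl1 were lower, with differences from -0.72 to -0.46. The sham windows mix technical sets.

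A comparison chosen after the sets were seen keeps each lesion within 1 set: 24 and 28 h against 1 h, in set D for sham and proximal and in set A for distal arrays. In sham 0 of 8 members were called by limma (3 at an unadjusted p under 0.05), with 2.61% of genes called, and Isl2 differed by -0.04 (interval -0.41 to 0.33). After the proximal lesion 5 members fell, against 13% of genes called lower: Pou4f1 (-1.32), Isl1 (-1.06), Runx1 (-1.001), Isl2 (-0.90) and Rbfox3 (-0.61). In sham, Pou4f1 had -0.78 (interval -1.52 to -0.04), Runx1 -0.61 (interval -1.06 to -0.16) and Isl1 -0.43 (interval -0.93 to 0.08) over the same hours, and the proximal change minus the sham change was not tested. After the distal lesion 5 members fell, against 4.52% of genes called lower: Tlx3 (-1.12), Isl1 (-1.01), Isl2 (-0.78), Runx3 (-0.55) and Rbfox3 (-0.53). Isl1, Isl2 and Rbfox3 fell after both lesions. Drgx differed by -0.23 after the proximal and -0.46 after the distal lesion, neither called, and by 0.61 in sham (interval 0.23 to 0.99, adjusted p = 0.0674).

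The change in distal arrays minus that in sham called 1 member, Drgx (-1.07, SE 0.27, adjusted p = 0.00865), with 5.9% of genes called, while Isl2 stood at -0.74 (interval -1.27 to -0.22, adjusted p = 0.0763) and Runx3 at -0.68 (adjusted p = 0.0717). Both were called with the technical set as a block (adjusted p = 0.00846 and 0.0107), with only the arrays compared, with array weights and with another quantile normalization. The set block, the fit of only the arrays compared and array weights called 1761, 1762 and 4010 genes, against 724 in the main fit. Distal minus proximal called 0 members by limma (1 at an unadjusted p under 0.05), with 10.8% of genes called. Isl2 differed between both lesions by 0.12 (interval -0.41 to 0.64), Isl1 by 0.05 (interval -0.67 to 0.76) and Rbfox3 by 0.08 (interval -0.42 to 0.59). The nearest to a call was Runx1, at 0.89 (interval 0.25 to 1.52, adjusted p = 0.0604), and it was called in the same 4 alternatives (adjusted p from 0.00597 to 0.0405).

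**Figure D5:**
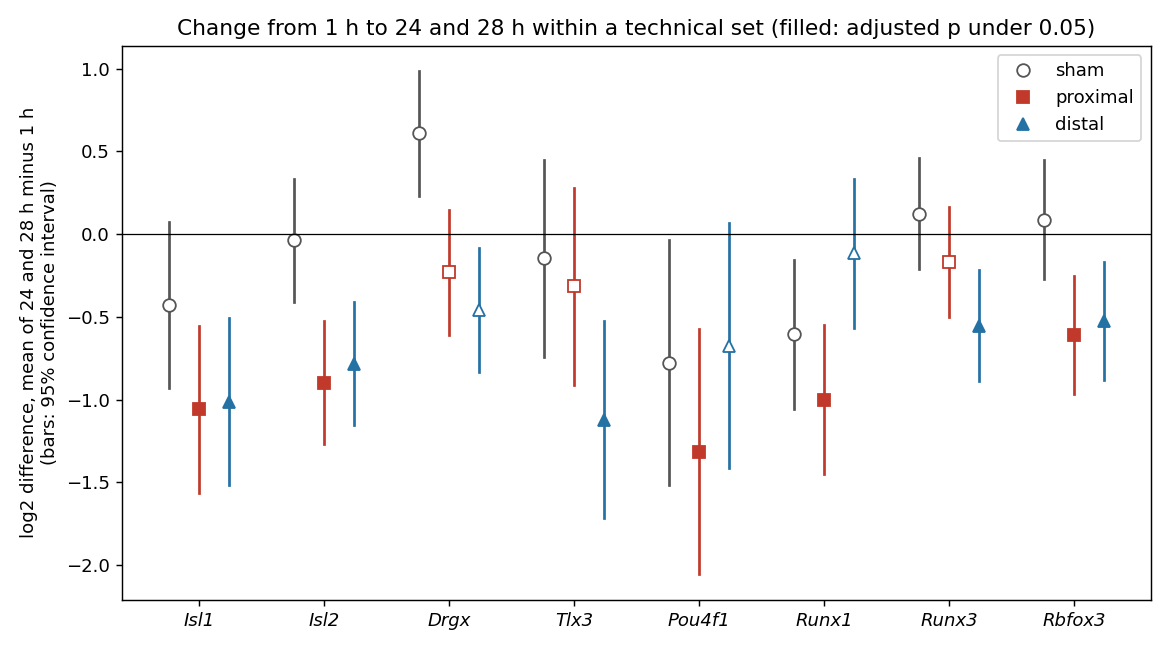
Log2 difference of the mean of 24 and 28 h minus 1 h (y axis, bars for the 95% confidence interval) for 8 genes in sham (circles), proximal (squares) and distal arrays (triangles), each within 1 technical set, with filled marks for an adjusted p under 0.05. No sham mark is filled, and Isl1, Isl2 and Rbfox3 are filled below 0 after both lesions.

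Runx1, Pou4f1 and Tlx3 varied widely over the hours within sham, where technical sets and hours go together. In sham arrays Runx1 had a mean of 7.80 at 1 h, 9.33 at 12 h, 6.84 at 24 h and 7.55 at 28 h, and proximal arrays followed with 8.44, 9.31, 7.21 and 7.67. Pou4f1 had 7.76, 8.92, 6.80 and 7.16 in sham at these hours and 8.10, 8.60, 6.74 and 6.83 in proximal arrays. Tlx3 had 8.78 at 1 h, 7.32 at 3 h and 8.96 at 28 h in sham, and 8.74, 7.22 and 8.82 in proximal arrays. The part of the technical sets in these courses was not tested.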

How the data were processed

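RNA from L4 and L5 ganglia was labelled with biotin and read on 72 arrays. The deposited log2 values were made by the authors with RMA, per the submitters' processing notes, and no other step is given in the sources used here. RMA puts all arrays on 1 distribution, so a shift of all genes is not seen, and precision depends on how many arrays a group has. Of 31042 probe sets (57 control probe sets left out), 20826 had 1 gene symbol, 436 several and 9780 none. The brightest single-symbol probe set stood for each of 14217 genes, and 12276 genes with a mean above the 25th percentile (5.463) were tested. A limma model with 24 group means (48 residual degrees of freedom, mean-variance trend) was fitted to all arrays, windows averaged the hours equally, and p-values were two-sided and Benjamini-Hochberg adjusted over all genes. R 4.3.3, limma 3.58.1 and the data.table package, version 1.17.8, were used, and the scripts were tested on simulated data. The members and gene lists were chosen with earlier results of these data known. Named from each list were the 4 genes with the smallest p and any gene called, and for Isl2 and Rbfox3 the 5 genes with the most similar hourly course. Technical sets, and every comparison within them, were chosen after the data were seen. Arrays carry letters that recur in each group, and same-lettered proximal and sham arrays deviated together at 1, 12 and 18 h (correlations from 0.478 to 0.799) but not at 3 and 8 h (-0.295 to -0.054), and at 24 and 28 h, where 5 of 6 correlations were above 0, they ran from -0.314 to 0.575, so letters were not taken as pairs. At 12 and 18 h the same letters also lay in the same technical sets, so letter and set cannot be told apart there. With 2 arrays a group at 12 h, both correlations of that hour (0.76) are the same value by design. No pair of arrays was identical. Alternatives were other filters, another quantile normalization, array weights (gene by gene), a fit of only the arrays compared, technical set or letter as a block, the dimmer probe sets, arrays without the 18 h groups or the letters with o, and leaving out each array in turn.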

Additional observations from a re-analysis of the deposited data

Results flagged for a closer look

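In 3 genes the proximal minus sham difference was not the same in the late and the early window, by the test of that difference with limma. It was more negative late by -0.96 for Isl2, -0.76 for Rbfox3 and -0.75 for Drgx (log2, adjusted p from 0.000182 to 0.00622). Drgx also changed differently in distal and sham arrays between 1 h and the later hours 24 and 28 h, with a difference of -1.07 (adjusted p = 0.00865). No array stood far from the others in the 24 cases tested for this, which were the 8 members in the 3 distal groups of 1, 8 and 18 h. Every sham and proximal group held 3 arrays or fewer and was not tested.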

How the results depend on the processing

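The late proximal calls of Isl2 and Drgx held in every alternative run and without any single array (-0.91 to -0.74 for Isl2; -0.70 to -0.56 for Drgx without single arrays and -0.54 with array weights), and that of Rbfox3 was lost with its dimmer probe set alone. The count of genes called late (1192) became 1809 with another quantile normalization, 4218 with array weights, 2336 with the technical set as a block and 2504 with the letter as a replicate block. In the middle window (14 genes) these gave 108, 0, 135 and 4432, a filter at the 50th percentile 9, a fit of only the arrays compared 0, and leaving out single arrays 2 to 246. In the early window (16) they gave 165, 1517, 588 and 701, then 44, 62 and 1 to 187. For late minus early (1064) they gave 1819, 4125, 2544 and 2748. Array weights gave 6431 for the distal change (3103) and 8887 for the sham change (4947). For the change from 1 h, distal against sham (724) had 4010 with array weights, 1762 with only the arrays compared, 1761 with the set as a block and 450 to 798 without single arrays (450 without distal 1 h a and 457 without distal 1 h b). Distal against proximal (1331) had 3599, 2893 and 2929, 591 without the sham and proximal arrays lettered a at 1 h, and 485 to 1558 without single arrays (829 without distal 1 h a, 692 without distal 1 h b and 485 without proximal 1 h a).

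With the letter as a replicate block Isl1 (adjusted p = 0.00312), Runx3 (0.00419) and Pou4f1 (0.0399) were also called late, with 2504 of 12276 genes called. The middle-window values of this block, its count of genes called included, rest at 16 h on 1 proximal array of set C minus 1 sham array of set B. Its calls there are therefore not listed, and at 16 h the difference of Isl2 was -1.43. By hour the block also called Isl1 (0.0374) and Drgx (0.00436) at 18 h, with 845 of 12276 genes called. At 24 h it also called Isl2 (0.00654) and Rbfox3 (0.0141), with 424 genes called. At 28 h it also called Drgx (0.00209) and Rbfox3 (0.0167), with 1065 genes called. Of the other transcription factors 7 to 16 were called lower over the alternatives, of the nociceptor genes 4 to 7, of the mechanoreceptor and proprioceptor genes 1 to 6 and of the RNA-binding protein genes 0 to 4. Array weights called Rbfox3, Tlx3 and Runx1 in the change against sham, and Tlx3, Pou4f1 and Runx3 in the change against proximal, too, and Rbfox3 was called against sham with only the arrays compared (0.0436).

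These differences changed sign. With the dimmer probe set, proximal minus sham late became 0.030 for Isl1 and 0.032 for Runx3, in the middle window 0.40 for Isl1, 0.16 for Isl2 and 0.23 for Runx3, and late minus early 0.084 for Runx3. Distal minus sham late became -0.34 for Isl1, -0.51 for Runx1 and 0.62 for Rbfox3, and distal minus proximal -0.37 for Isl1, -0.23 for Isl2, -0.45 for Runx1 and 1.07 for Rbfox3. The reversed differences of Runx1 in both comparisons and of Rbfox3 in distal minus proximal were themselves called. The sham change became 0.28 for Runx1, -0.055 for Runx3 and -1.29 for Rbfox3, of which that of Rbfox3 was called. The change from 1 h against sham became -0.14 for Runx1 and 0.41 for Rbfox3, and against proximal -0.041 for Isl2 and -0.16 for Runx1. Without the 18 h arrays Runx1 had 0.24 late and 0.026 late minus early. Another quantile normalization gave 0.092 for Rbfox3 in the middle window, -0.023 for Isl1 in distal minus sham, -0.11 for Drgx in distal minus proximal and -0.0066 for Isl1 in the change against proximal. In the middle window the replicate block gave -0.17 for Tlx3, and the set block 0.024 for Runx3 and 0.058 for Rbfox3. Array weights gave 0.20 for Tlx3 late minus early, and the change of Isl2 against proximal was -0.080 without the sham and proximal arrays lettered a at 1 h. Without single arrays the ranges that crossed 0 were -0.13 to 0.057 for Runx1 late, -0.39 to 0.54 for Tlx3, -0.45 to 0.22 for Runx3 and -0.19 to 0.15 for Rbfox3 in the middle window, -0.12 to 0.26 for Pou4f1 early, -0.068 to 0.072 for Drgx in distal minus proximal, -0.23 to 0.68 for Pou4f1 in the change against sham, and -0.14 to 0.40 for Isl1, -0.080 to 0.31 for Isl2 and -0.037 to 0.22 for Rbfox3 in the change against proximal. The cause of each was not tested. The technical set as a block could not be fitted for distal against sham, distal against proximal or the sham change, and the middle window has no value without the 1 sham array of 16 h.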

Other observations

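At 8 h the 2 distal arrays whose letter is followed by o, a mark the labels do not explain, did not overlap the other 3 distal arrays in 4 members. The share of all genes with such a separation, at this or another hour, was not computed. Drgx was lower, at 8.42 and 8.50 against 8.96 to 9.29, and Isl1 was higher, at 10.30 and 10.43 against 9.08 to 9.72. Tlx3 (7.38 and 7.44 against 6.78 to 7.26) and Runx3 (8.39 and 8.45 against 8.18 to 8.36) were higher as well. At 1 h the single such array was again lowest in Drgx, at 9.02 against 9.32 to 9.67, and highest in Isl1, at 10.43 against 9.69 to 9.96. At 18 h the 3 such arrays overlapped the other 3 in Drgx and were higher in Isl1, at 9.28 to 10.13 against 9.09 to 9.22. The array of 1 h lay in technical set B and 1 of those of 18 h in set C, while the other distal arrays lay in set A, so at these hours the mark and the set cannot be fully told apart; all 5 arrays of 8 h lay in set A. These members were singled out after their values were seen.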
